A study of Saccharomyces cerevisiae with 9 samples.

Results

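The genes described here are 10 yeast genes of protein folding in the endoplasmic reticulum (ER) and of the unfolded protein response: KAR2, PDI1, ERO1, EUG1, LHS1, SCJ1, JEM1, MPD1, IRE1 and HAC1. They were chosen by gene symbol, and all 10 had a spot on both array platforms, among 5189 genes shared by the platforms. The study measured mRNA in Saccharomyces cerevisiae strain S288C, a laboratory strain with no engineered allele named in the labels. Cultures grew in the rich medium YPD at 30 °C to an absorbance of 1.0. Of 600 ml of culture, 200 ml was set aside unfrozen as control, and the volume sampled was 100 ml. The recovering cells came from 400 ml that spent 1 week at -80 °C without a cryoprotectant, was thawed for 25 min at 30 °C, and then recovered for 15, 30 or 60 min. Each time point had 3 arrays, each comparing recovering cells (dye Cy5) with the control (dye Cy3).

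Secretory and membrane proteins fold in the ER. KAR2 encodes the Hsp70 chaperone of its lumen, which binds unfolded chains. The J proteins SCJ1 and JEM1 stimulate its ATPase, and LHS1, an Hsp70-related protein, exchanges its nucleotide. PDI1 makes and rearranges disulfide bonds, the thiol oxidase ERO1 reoxidises PDI1, and EUG1 and MPD1 are relatives of PDI1. When unfolded proteins build up, the membrane sensor IRE1 cuts an intron out of HAC1 mRNA, and the Hac1 protein made from the joined mRNA switches on genes of ER folding.

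Every value is a log2 ratio of recovering cells over cells before freezing, so 1 is a doubling and 0 no difference. This direction is read from the labels, which put the recovering sample in channel 1, and with the opposite ratio every sign below would be reversed. A ratio is a gene's share of the mRNA against the control and does not compare levels between genes. In a culture sampled as a whole, a change in every cell and a change in the share of cells that hold the transcript cannot be told apart. An array held values for 2603 to 5087 of the 5189 genes, and the 3 arrays per time point limit the precision. Replicate 1 of each time point was on the first platform and replicates 2 and 3 on the second. The 10 genes had 71 of 90 possible values. Complete sets of 9 values existed for 5 of them (KAR2, PDI1, ERO1, EUG1 and HAC1), while 31.9% of all genes had 9. Two-sided limma tests over all genes were used, with Benjamini-Hochberg adjustment and a threshold of 0.05.

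The means of the 5 genes with all 9 values did not follow 1 course, although no change between times passed in the fit reported. The mean of ERO1 was about 2 times its level before freezing at 15 and 30 min and back near it at 60 min. It passed at 30 min only, and that call ended without any 1 replicate, when calls over all genes also fell. KAR2 had means of 0.58, 0.63 and -0.023 at the 3 times, none of which passed. PDI1 was near its earlier level at 15 min and 2.39-fold higher at 60 min. Of the transcripts of the response itself, HAC1 did not pass at any time and IRE1 had too few values to be tested.

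**Figure D1:**
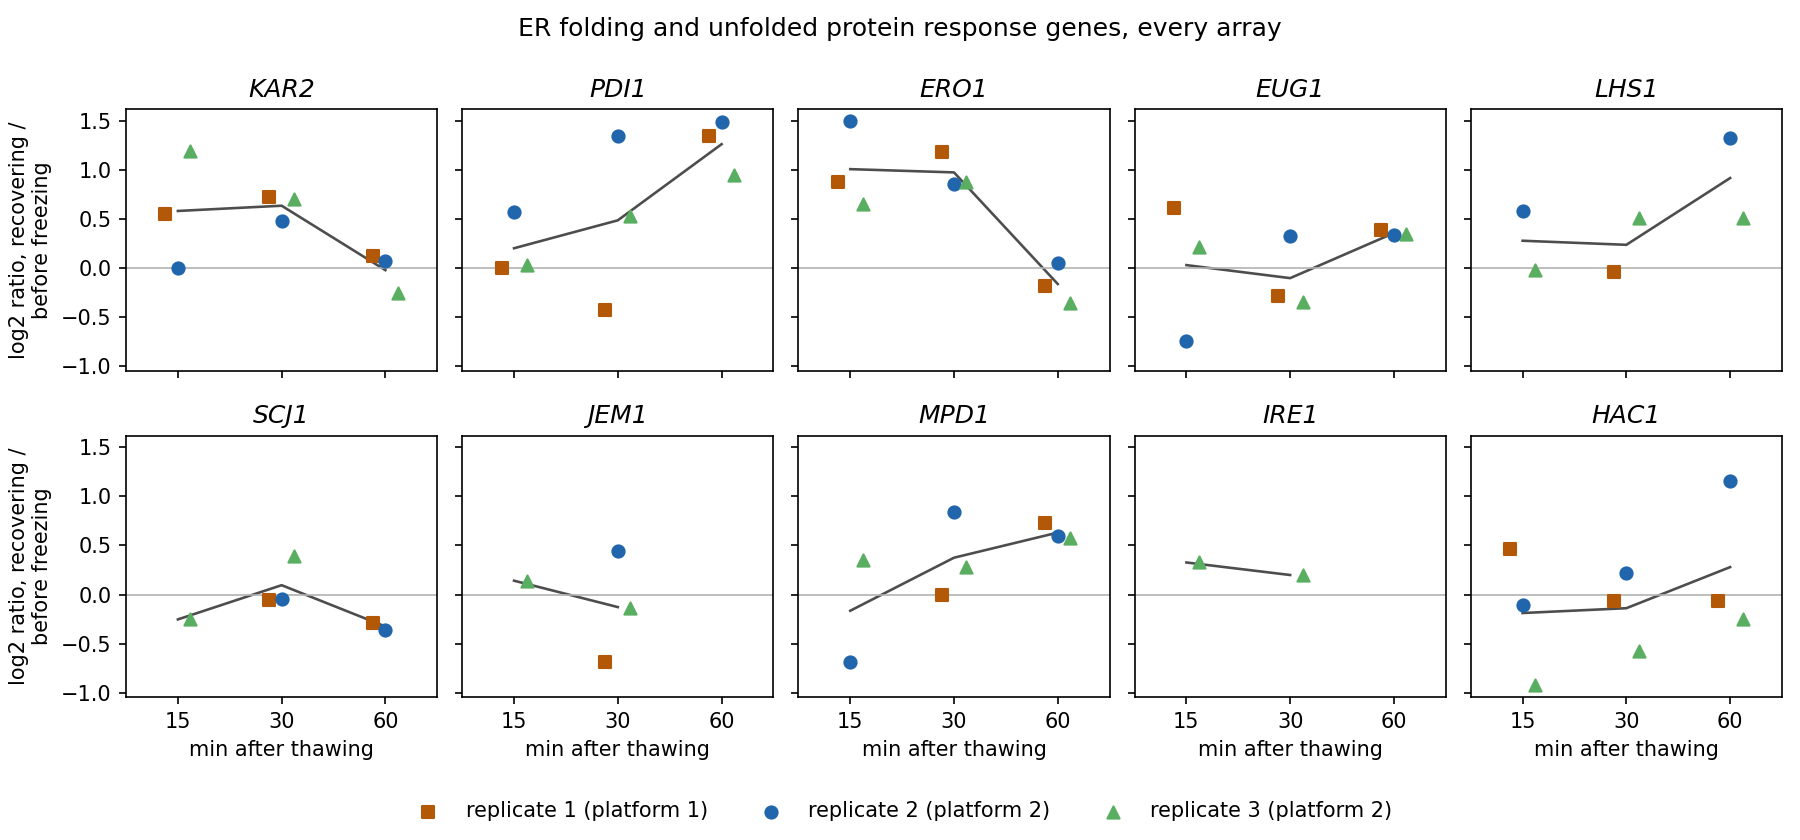
Log2 ratio of recovering cells over cells before freezing (vertical axis) at 15, 30 and 60 min after thawing (horizontal axis) for each of the 10 genes; each point is 1 array, marker and colour give the replicate and its platform, and the line joins the means of the arrays with a value. ERO1 lies above 0 on all 6 arrays at 15 and 30 min, PDI1 lies between 0.95 and 1.49 at 60 min, and IRE1 has points on 2 arrays only.

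Among the oxidative folding genes, ERO1 (YML130C) had the highest mean of the 10 genes at 15 and at 30 min. At 15 min its log2 ratios on replicates 1, 2 and 3 were 0.87, 1.49 and 0.65. All 3 arrays were above 0, with replicate 2 the highest. The mean was 1.005 ± 0.27 (SE, n = 3; 2.01-fold) and ranked 45 of 2148 genes tested, but it did not pass (limma, adjusted p = 0.0642). With a term for replicate number in limma it passed (adjusted p = 0.011), but no label says what a number shares. That fit had 88 genes higher and 73 lower of 2148, in place of 18 and 7.

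At 30 min ERO1 was at 1.18, 0.85 and 0.88. The arrays lay within a narrower range than at 15 min, all above 0. ERO1 rose 1.96-fold at 30 min (0.97 ± 0.27, SE, n = 3, limma adjusted p = 0.039). The means at 15 and 30 min were nearly the same, with a difference of -0.033 (95% interval -0.83 to 0.76), so the test's threshold and not the size of the ratio sets them apart. The call at 30 min ended without any 1 of the arrays: the mean was 0.87 without replicate 1, 1.03 without replicate 2 and 1.02 without replicate 3 (limma adjusted p = 0.282, 0.137 and 0.275). Calls over all genes fell as well. They went from 76 higher and 68 lower to 30 and 5, 16 and 4, and 29 and 4 without replicates 1, 2 and 3.

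At 60 min ERO1 was at -0.19, 0.047 and -0.35. All 3 arrays lay below every array of the earlier times. The mean was -0.16 (95% interval -0.73 to 0.40) and did not pass (limma, adjusted p = 0.675). The mean at 60 min was lower than at 15 min by a log2 difference of -1.17 ± 0.39 (limma adjusted p = 0.0681) and than at 30 min by -1.14 ± 0.39 (adjusted p = 0.309). Neither difference passed over all genes, although the unadjusted p were 0.00539 and 0.00666.

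PDI1 (YCL043C), the disulfide isomerase that ERO1 reoxidises, had the opposite order. At 15 min it was at 0.0033, 0.57 and 0.028. Replicates 1 and 3 were at the level before freezing and replicate 2 above it. The mean of 0.20 ± 0.30 did not pass (limma adjusted p = 0.782, n = 3).

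At 30 min PDI1 was at -0.42, 1.35 and 0.53, the widest spread of the 5 genes with all 9 values at that time (SD 0.886). Replicate 1, on the first platform, was below 0 and both arrays of the second platform above it. The mean was 0.48 ± 0.30 (limma adjusted p = 0.411), and leaving out 1 array moved it between 0.053 (without replicate 2) and 0.94 (without replicate 1). With a term for platform the mean was 0.40 (adjusted p = 0.472).

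At 60 min PDI1 was at 1.34, 1.49 and 0.95. All 3 arrays were far above 0 and the platforms overlapped. PDI1 rose 2.39-fold (1.26 ± 0.30, SE, n = 3, limma adjusted p = 0.00256), rank 174 of 2952. It was the only one of the 10 genes that passed at 60 min, and it passed without any 1 replicate (1.14 to 1.42, adjusted p from 0.0253 to 0.0367). Its change from 15 to 60 min was 1.06 ± 0.43 (limma adjusted p = 0.128) and from 30 to 60 min 0.78 ± 0.43 (adjusted p = 0.528). The 3 arrays at 60 min lay above all 3 at 15 min, but overlapped those at 30 min because of replicate 2.

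The relatives of PDI1 had smaller values at 60 min, none of which passed. MPD1 (YOR288C) was at 0.73, 0.59 and 0.57 at that time. The arrays were close together and all above 0 (0.63 ± 0.29, SE, n = 3, 1.55-fold, limma adjusted p = 0.092). At 30 min it was at 0.0001, 0.84 and 0.28, so that no array was below 0, with a mean of 0.37 ± 0.29 (limma adjusted p = 0.525). At 15 min replicate 1 had no value and the others disagreed in sign, at -0.68 and 0.35.

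EUG1 (YDR518W) was at 0.39, 0.33 and 0.34 at 60 min. These were the tightest 3 arrays of any of the 10 genes at any time with 3 values (SD 0.0307), with a mean of 0.35 (95% interval -0.24 to 0.95, limma adjusted p = 0.359). The interval is wider than the 3 arrays because limma takes each gene's spread over all 9 arrays and draws it towards a value shared by all genes. EUG1 scattered around 0 earlier, with 0.61, -0.74 and 0.21 at 15 min. At 30 min it was at -0.28, 0.32 and -0.35, again on both sides of 0. Neither earlier mean passed (0.028 and -0.10, limma adjusted p = 0.976 and 0.896).

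Within the Hsp70 system, KAR2 (YJL034W) was at 0.55, -0.0019 and 1.19 at 15 min. Replicate 2 was at the level before freezing and replicate 3 the highest of the 9 arrays. The mean was 0.58 ± 0.28 (1.49-fold, n = 3, limma adjusted p = 0.283). At 30 min KAR2 was at 0.72, 0.48 and 0.70, with all 3 arrays above 0 and close together. The mean of 0.63 ± 0.28 (1.55-fold, n = 3) did not pass (limma adjusted p = 0.216, unadjusted p = 0.0322). With array weights, which gave replicate 3 the highest weight at that time, KAR2 was at 0.67 and passed (adjusted p = 0.0178). That fit had 244 genes higher and 412 lower of 3320, in place of 76 and 68.

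At 60 min KAR2 was at 0.12, 0.068 and -0.26, and the 3 arrays lay on both sides of 0. They lay below all 3 arrays at 30 min, and overlapped those at 15 min. The mean was -0.023 (95% interval -0.60 to 0.55, limma adjusted p = 0.955). The differences from 30 and from 15 min, -0.66 ± 0.40 and -0.60 ± 0.40, did not pass (limma adjusted p = 0.572 and 0.352).

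The partners of KAR2 were measured on fewer arrays. LHS1 (YKL073W), the exchange factor, had 2 values at each time: 0.58 and -0.024 at 15 min (replicates 2 and 3), -0.038 and 0.51 at 30 min (replicates 1 and 3), and 1.32 and 0.51 at 60 min (replicates 2 and 3). It was above 0 on both arrays at 60 min only. When genes with 2 arrays were admitted, its mean at 60 min was 0.91 ± 0.36 and did not pass (limma adjusted p = 0.062).

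SCJ1 (YMR214W), a J protein of the lumen, was below 0 on 5 of 6 arrays. It was at -0.055, -0.048 and 0.39 at 30 min (mean 0.095 ± 0.28, limma adjusted p = 0.903). Single values were -0.25 at 15 min (replicate 3) and -0.29 and -0.36 at 60 min (replicates 1 and 2). JEM1 (YJL073W), the J protein of the ER membrane, was at -0.69, 0.44 and -0.13 at 30 min, spread around 0 (mean -0.13 ± 0.30, limma adjusted p = 0.874). Its only other value was 0.14 at 15 min (replicate 3), and it had none at 60 min.

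For the signalling genes, the sensor IRE1 (YHR079C) had a value on replicate 3 alone, 0.33 at 15 min and 0.20 at 30 min. Nothing can be said of its spread, and it had no value at 60 min. HAC1 (YFL031W), the transcription factor gene, was at 0.47, -0.11 and -0.92 at 15 min. The arrays at 30 min were at -0.066, 0.22 and -0.57, and those at 60 min at -0.071, 1.15 and -0.25. At each time HAC1 lay on both sides of 0, and it was above 0 on 3 of 9 arrays. Its means were -0.19, -0.14 and 0.28, each ± 0.31 (n = 3, limma adjusted p = 0.802, 0.866 and 0.52). The 95% interval at 60 min ran from -0.36 to 0.92, and without replicate 2 the mean there was -0.16. The deposited ratios do not separate HAC1 mRNA with the intron from the spliced form, so they give no reading of its splicing.

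Counted together, 0 of the 5 genes tested at 15 min passed in limma, when 0.838% of all genes tested were higher and 0.326% lower. An unadjusted p under 0.05 was reached by 2 of them (ERO1 and KAR2; 17.5% of all genes). At 30 min 1 of 8 was higher (ERO1), against 2.29% of all genes, and 0 were lower, against 2.05%; 2 reached an unadjusted p under 0.05 (ERO1 and KAR2; 18.3%). At 60 min 1 of 6 was higher (PDI1), against 15.6% of all genes, and 0 were lower, against 17.5%; 2 reached an unadjusted p under 0.05 (PDI1 and MPD1; 43.7%). The count at 60 min is close to that background. Genes with all 3 arrays above 0 numbered 2 of 5 at 15 min (ERO1 and PDI1; 15.1% of all genes), 3 of 8 at 30 min (ERO1, KAR2 and MPD1; 19.3%) and 3 of 6 at 60 min (PDI1, MPD1 and EUG1; 26.8%). No member tested had all 3 arrays below 0, against 20.8%, 25.5% and 32.6% of all genes at these times. The median log2 ratio of the members tested was 0.20 at 15 min, 0.23 at 30 min and 0.32 at 60 min, and that of all genes tested was -0.053, -0.08 and -0.056. The sets tested differ between the times, since SCJ1 and JEM1 had 3 values at 30 min only.

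**Figure D2:**
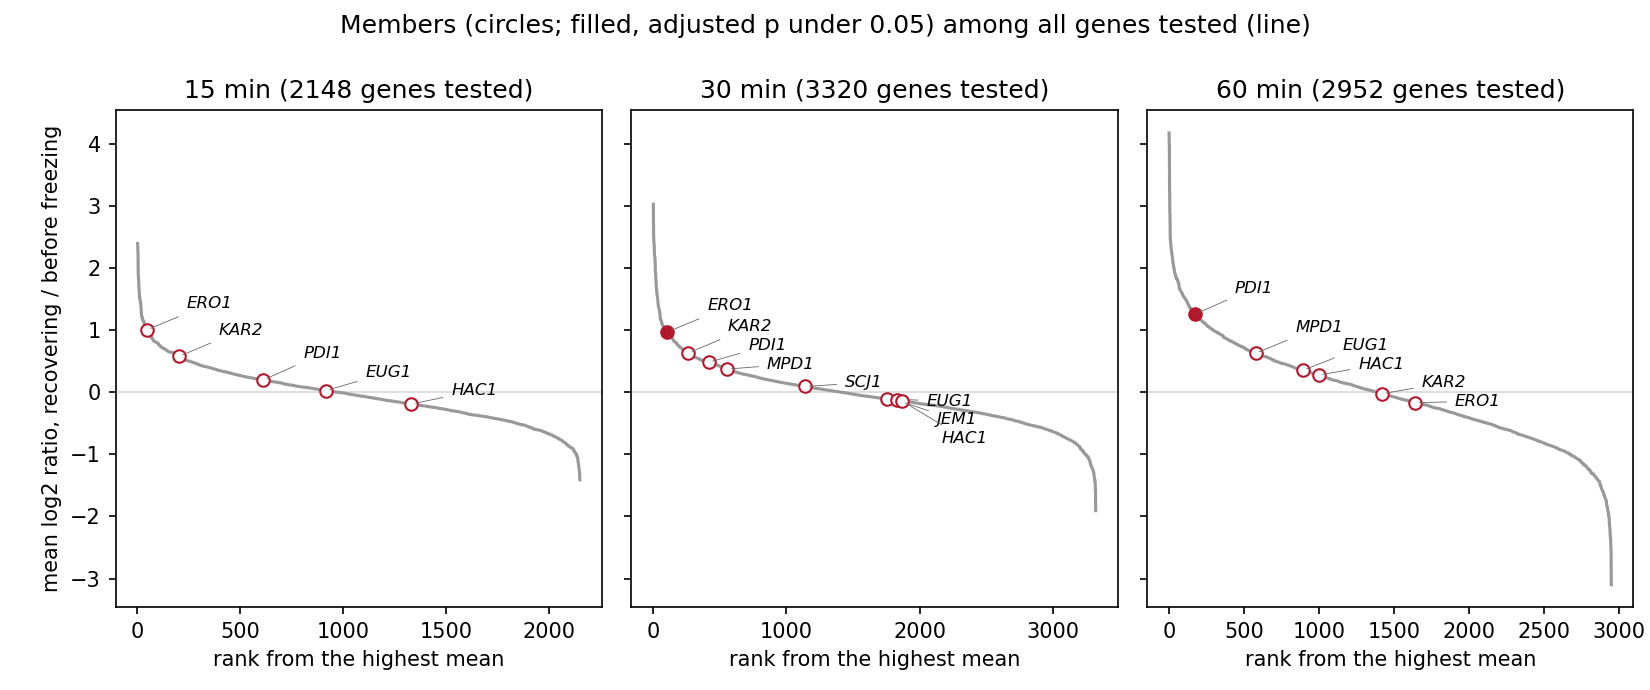
Mean log2 ratio (vertical axis) against rank from the highest mean (horizontal axis) for all genes tested at each time point; the grey line is all genes and circles are the members tested, filled where the adjusted p is under 0.05. ERO1 ranks 45 of 2148, 106 of 3320 and 1643 of 2952 at 15, 30 and 60 min, and PDI1 611, 415 and 174.

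Between time points, 0 of the 10 genes passed in limma as reported here. With a term for replicate number, ERO1 (adjusted p = 0.0235) and PDI1 (0.0452) passed from 15 to 60 min. That fit had 131 genes higher and 160 lower of 1871, in place of 45 and 63. The numbers tested were 5 between 15 and 30 min, 5 between 15 and 60 min and 6 between 30 and 60 min, and 0, 2 (ERO1 and PDI1) and 1 (ERO1) had an unadjusted p under 0.05. Of all genes 2.81%, 24.6% and 10.9% did so. From 15 to 60 min 2.41% of all genes passed as higher and 3.37% as lower, from 30 to 60 min 0% and 0.0407%, and from 15 to 30 min 0% in both directions. From 15 to 60 min the later arrays all lay above the earlier ones for 1 of 5 members (PDI1; 13.6% of all genes) and all below for 1 (ERO1; 12.6%). From 30 to 60 min 2 of 6 lay wholly below (ERO1 and KAR2; 10.2%) and 1 wholly above (EUG1, by 0.33 against 0.32 at the nearest arrays; 6.11%). Between 15 and 30 min 0 of 5 were apart in either direction, against 5.88% above and 3.83% below.

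The contrast between PDI1 and the pair ERO1 and KAR2 was set out within each array, where the centring of the array cancels. These pairs were picked after their values had been seen. At 15 min PDI1 minus ERO1 was -0.87, -0.93 and -0.62 on replicates 1, 2 and 3, and at 60 min it was 1.53, 1.44 and 1.30. The sign was the same on all 3 arrays at each of these times and turned between them. At 30 min the arrays disagreed, at -1.61, 0.49 and -0.35.

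PDI1 minus KAR2 was 1.22, 1.42 and 1.21 at 60 min, with all 3 arrays close together. At 15 min it was -0.55, 0.57 and -1.16, and at 30 min -1.14, 0.87 and -0.17, so the 3 arrays disagreed in sign at both times. ERO1 minus KAR2 was 0.32, 1.496 and -0.54 at 15 min, so the arrays disagreed in sign. It was between -0.31 and -0.021 at 60 min and between 0.18 and 0.46 at 30 min. Of 6 exact two-sided permutation tests between times (60 against 15 or 30 min for 3 pairs of genes, 3 arrays against 3), 5 gave p = 0.1, the smallest this design allows, and 0.12 after Benjamini-Hochberg adjustment. The other, ERO1 minus KAR2 at 60 against 15 min, gave an exact p of 0.5. No pair could therefore pass, whatever its values. A p of 0.1 here says only that the arrays of the times compared did not overlap. The pairs were picked after their values had been seen, and the share of other gene pairs that separate as fully was not computed. The count of 5 is therefore a description. Whether these pairs differ between times more than other pairs of genes was not tested.

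**Figure D3:**
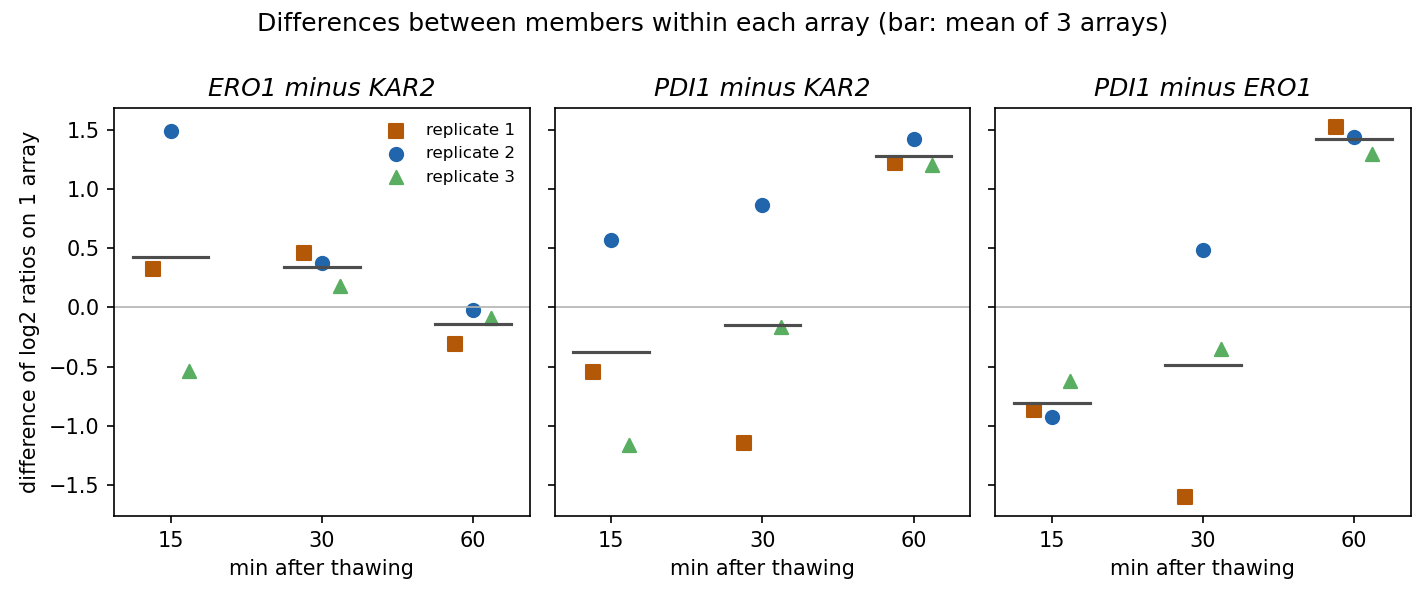
Difference of the log2 ratios of 2 genes on the same array (vertical axis) at 15, 30 and 60 min (horizontal axis); points are arrays, with marker and colour by replicate, and the bar is the mean of 3. PDI1 minus ERO1 lies between -0.93 and -0.62 at 15 min and between 1.30 and 1.53 at 60 min.

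Across the 9 arrays, KAR2 was compared with the 1656 other genes that had 9 values. The 5 genes with the highest Pearson correlation were UBC1, a ubiquitin-conjugating enzyme (0.954), MLC1, a myosin light chain (0.932), RPN13, a proteasome subunit (0.923), THG1, a tRNA-His guanylyltransferase (0.918), and PAM16, of the mitochondrial import motor (0.903). They are the top of 1656 ranked genes and share the arrays' dyes and normalization with KAR2, so the values are a description. Like KAR2, UBC1 was highest on replicate 3 at 15 min (1.14), and at 60 min it was at -0.35, -0.43 and -1.17. ERO1 ranked 313 in likeness to KAR2 (0.456), EUG1 900 (-0.034), HAC1 1372 (-0.461) and PDI1 1570 (-0.626). The other 5 members lacked a value on at least 1 array and were not ranked.

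The other genes of the secretory pathway were counted in 6 further ER lists. Of 72 tested at 30 min 1 was higher and 0 lower, against 2.29% and 2.05% of all genes. It was OST1, a subunit of the oligosaccharyltransferase that attaches N-glycans (1.03 ± 0.30, limma adjusted p = 0.0464). Its call ended without replicate 1 (1.33, adjusted p = 0.0875), 2 (0.61, 0.323) or 3 (1.14, 0.306), with centred medians (0.0666), with genes of 2 arrays admitted (0.0517) and with a platform term (0.0697). Without a replicate, calls over all genes at 30 min also fell, as given for ERO1 above. At 15 min 0 of 51 passed in limma, with 1 at an unadjusted p under 0.05, and 0.838% of all genes were higher and 0.326% lower. At 60 min, when 15.6% of all genes were higher and 17.5% lower, 18 were higher and 9 lower of 74.

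Among 10 other ER folding factors tested at 60 min, 5 were higher and 1 lower, with a median of 0.88. CPR2, a prolyl isomerase of the secretory pathway, rose 3.92-fold (1.97 ± 0.29), and its arrays were at 2.07, 2.66 and 1.18. EMC3 (1.55 ± 0.31) and EMC1 (1.20 ± 0.32), of the ER membrane protein complex, and CPR5, an ER prolyl isomerase (1.15 ± 0.30), also rose (limma adjusted p from 1.57e-05 to 0.0056). ROT1 (1.05 ± 0.37) was the fifth, and ERV2, a thiol oxidase of the ER like ERO1, fell (-0.79 ± 0.27, adjusted p = 0.0234); they are named to complete the count, after their values had been seen. Calls ended for EMC1 without replicate 2 (0.65), for CPR5 without replicate 1 (0.97) or 3 (1.11), for ROT1 without replicate 1 (1.12) or 2 (0.39), and for ERV2 without replicate 1 (-0.78), 2 (-0.78) or 3 (-0.83).

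Of 16 genes of N-glycosylation tested at 60 min, 7 were higher and 1 lower (median 0.66). ALG13 (1.34 ± 0.32) and ALG11 (1.05 ± 0.30), which build the lipid-linked glycan, and the oligosaccharyltransferase subunits OST1 (1.29 ± 0.30) and WBP1 (1.29 ± 0.37) rose (limma adjusted p from 0.00197 to 0.00978), while ALG5, named after its value had been seen, fell (-0.83 ± 0.29). WBP1 was at 0.34, 2.70 and 0.83, and without replicate 2 its mean was 0.58. Calls also ended for ALG11 without replicate 2 (0.74) or 3 (1.14), for ALG13 without replicate 1 (0.87), for WBP1 without replicate 3 (1.52) and for ALG5 without replicate 1 (-0.72) or 3 (-0.72).

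Of 11 genes of ER-associated degradation, 1 was higher and 2 lower at 60 min (median -0.008). YOS9, a lectin that recognises misfolded glycoproteins, fell 3.35-fold (-1.74 ± 0.28, limma adjusted p = 3.93e-05), with arrays at -2.22, -1.60 and -1.40. DFM1, a derlin, rose (1.19 ± 0.29) and UBC6, a ubiquitin-conjugating enzyme, fell (-0.73 ± 0.28). The calls of DFM1 ended without replicate 1 (0.96) or 3 (1.12) and that of UBC6 without replicate 1 (-0.93), 2 (-0.56) or 3 (-0.71).

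Of 17 translocation genes, SSH1, a Sec61 homologue, rose at 60 min (1.27 ± 0.33), and 3 fell: YDR292C, a subunit of the signal recognition particle receptor (-0.98 ± 0.28), SRP68 (-0.92 ± 0.29) and SEC63, the membrane J protein that partners KAR2 at the channel (-0.89 ± 0.29). SEC63 was at -1.68, -0.44 and -0.57, and without replicate 1 its mean was -0.50. Calls also ended for SSH1 without replicate 2 (0.78), for YDR292C without replicate 1 (-0.81) or 3 (-0.90), for SRP68 without replicate 1 (-0.78) or 3 (-0.94) and for SEC63 without replicate 3 (-1.06).

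Of 14 genes of ER to Golgi vesicles 4 were higher and 1 lower at 60 min (median 0.013). The cargo receptors ERV25 (1.18 ± 0.27) and ERV29 (1.12 ± 0.29) rose, with SEC13 (0.95 ± 0.32) and BET1 (0.83 ± 0.29, named to complete the count), and SEC12, which starts coat assembly, fell (-0.94 ± 0.28). Calls ended for ERV29 without replicate 1 (0.92) or 3 (0.97), for SEC13 without replicate 1 (0.997) or 2 (0.56), for BET1 without replicate 1 (1.01), 2 (0.57) or 3 (0.92) and for SEC12 without replicate 1 (-0.67) or 3 (-1.04). Of 6 partners of the unfolded protein response 1 was lower, the SAGA subunit SPT20 (-1.07 ± 0.30; -0.72 without replicate 1 and -1.14 without replicate 2, neither passing).

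The cytosolic chaperones were measured on the same arrays. Of 14, 15 and 14 tested at 15, 30 and 60 min, 4, 5 and 7 were higher and 0, 0 and 2 lower, with medians of 0.57, 0.83 and 0.77. Of all genes 0.838%, 2.29% and 15.6% were higher and 0.326%, 2.05% and 17.5% lower. At 60 min the small heat shock protein HSP26 (3.99 ± 0.32), the Hsp70s SSA4 (3.21 ± 0.30) and SSA1 (1.94 ± 0.33) and the disaggregase HSP104 (1.42 ± 0.29) were the highest. KAR2, the Hsp70 of the ER lumen, was at 0.58 and 0.63 at 15 and 30 min, when the medians of this list were 0.57 and 0.83. At 60 min KAR2 was at -0.023. The Hsp70 SSA2 (0.58 ± 0.29) and the Hsp70-related SSE1 (-0.53 ± 0.28) did not pass (limma adjusted p = 0.118 and 0.142). The 2 that passed as lower were YDJ1 (-1.03 ± 0.30) and CUR1 (-0.74 ± 0.29). Their calls ended without replicate 3 (-0.83 and -0.67) and, for CUR1, without replicate 2 (-0.47). CUR1 (limma adjusted p = 0.0497) also lost its call under 7 of 11 further alternatives (adjusted p from 0.0505 to 0.108). These 11 include the second platform alone, the same fit as leaving out replicate 1, under which CUR1 kept its call. No test was made of a difference between the lists.

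**Figure D4:**
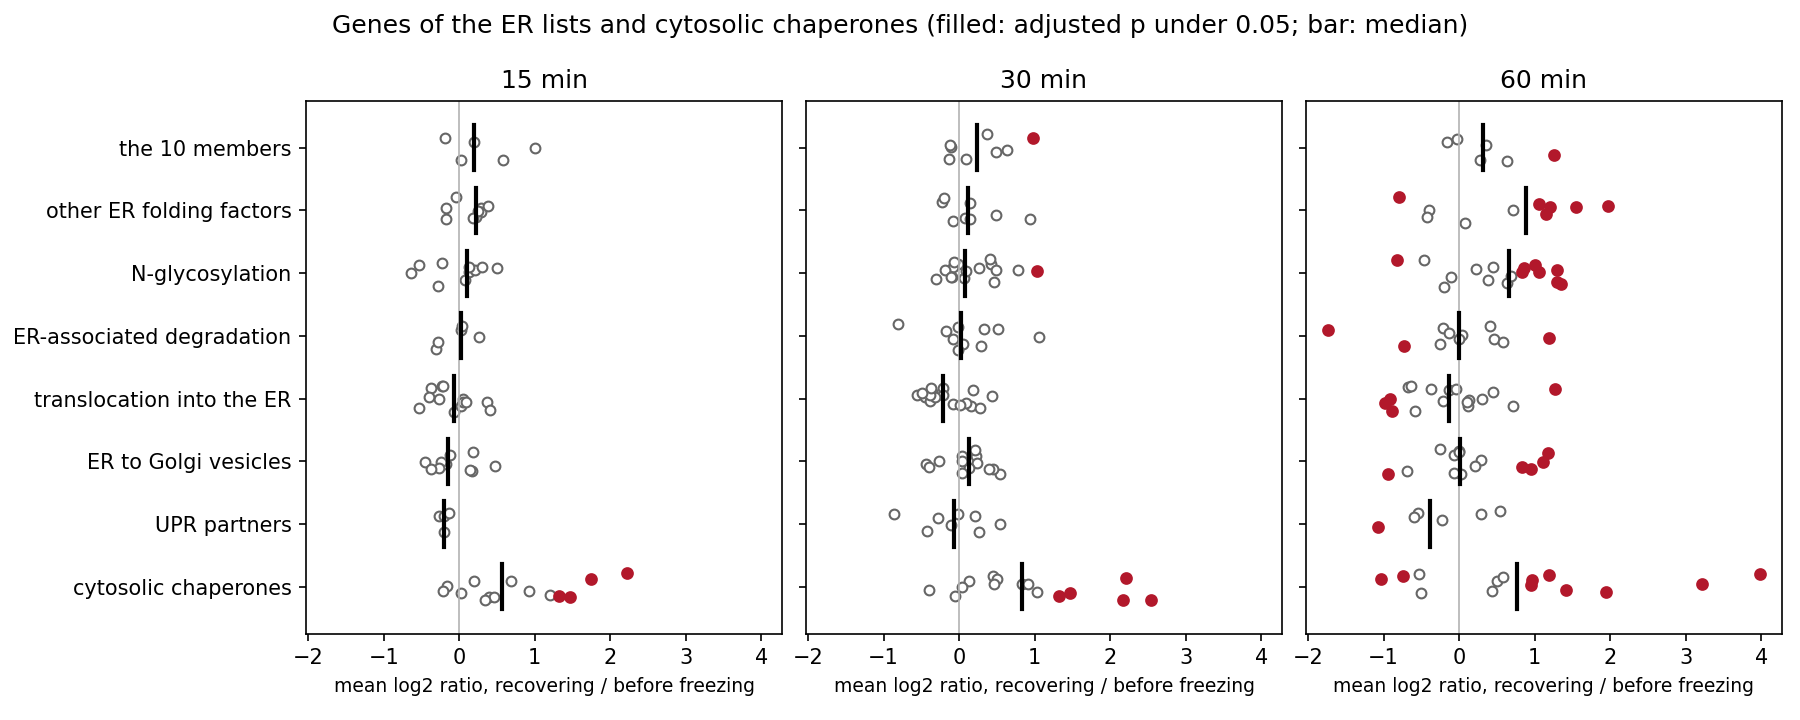
Mean log2 ratio (horizontal axis) of each gene tested at 15, 30 and 60 min, by list (vertical axis); filled circles have an adjusted p under 0.05 and the bar is the median of the list. Filled circles among the ER lists are almost all at 60 min, when calls over all genes were also most frequent (15.6% higher and 17.5% lower). Of 74 genes in the 6 further ER lists, 18 were then higher and 9 lower. Higher were 5 of 10 other ER folding factors, 7 of 16 N-glycosylation genes and 4 of 14 genes of ER to Golgi vesicles. In ER-associated degradation 1 of 11 was higher, in translocation 1 of 17, and among partners of the unfolded protein response 0 of 6. Medians of these lists ran from -0.39 (partners of the unfolded protein response) to 0.88 (other ER folding factors).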

How the data were processed

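The deposited values are log2 ratios of the 2 channels, to which the authors applied LOWESS normalization with spots of flag value 0, per the labels. Not given in the sources used here: scanner, image software, background correction, genome build. No channel intensities were used. Symbols came from GEO's platform annotation (5297 and 5291 of 6272 spots, 1 symbol each) and locus tags from RefSeq R64. Spots of 1 gene were averaged, and nothing was filled in.

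All 9 arrays were fitted with limma 3.58.1 in R 4.3.3 (lmFit, eBayes), with 1 mean per time point. Each SE comes from a gene's spread over all 9 arrays, drawn by eBayes towards a value shared by all genes. It is therefore not the spread of the arrays of 1 time point alone. Each time point was tested against 0, and pairs of time points against each other, where all arrays compared had a value. The control channel's own spread is left out where arrays shared a control, which the labels do not say. The series describes the samples as independent. Code was tested on simulated data. Exact permutation tests used SciPy 1.17.1.

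The 10 genes and the lists were chosen with earlier results of these data known. Genes named from a list are up to 4 that passed at the time with most calls, by size, and the 5 most like KAR2. Alternatives were centring, scaling, fewer arrays per gene, single spots, the lowest value left out, fewer samples, replicate and platform terms, array weights, a robust spread and each replicate left out.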

Additional observations from a re-analysis of the deposited data

Results flagged for a closer look

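No difference between time points passed for the 10 ER folding and unfolded protein response genes in the fit reported. For 6 genes of the other lists the change from 15 to 60 min passed the test of the difference itself. Of 47 genes tested in the 6 further ER lists 2 were higher and 1 lower, and of 13 cytosolic chaperones 2 and 1. Over all genes 2.41% were higher and 3.37% lower. CPR2 was 1.68 higher at 60 min (log2 difference, limma adjusted p = 0.0176), ERV25 1.44 higher (0.0264), HSP26 3.06 higher (0.000201) and SSA4 1.47 higher (0.0384), while YOS9 changed by -1.78 (0.0115) and YDJ1, a cytosolic J protein, by -1.37 (0.0486). YOS9 was at 0.37, -0.21 and -0.055 at 15 min and ERV25 at -0.30, -0.23 and -0.25, and their arrays at 60 min did not overlap these. YDJ1 was at 0.15, 0.93 and -0.071 at 15 min and at -0.63, -1.03 and -1.44 at 60 min, with no overlap. Over all genes, the arrays at 60 min lay wholly above those at 15 min for 13.6% and wholly below for 12.6%. With each replicate left out in turn the adjusted p reached 0.273, 0.236, 0.195, 0.274, 0.195 and 0.328 for CPR2, ERV25, HSP26, SSA4, YOS9 and YDJ1. Over all genes, calls then fell from 45 higher and 63 lower. They were 1 and 5, 0 and 1, and 2 and 0 without replicates 1, 2 and 3. With all arrays set to 1 median absolute deviation none of the 6 passed (1.29, 1.32, 2.18, 0.67, -1.51 and -1.20). Of all 1871 genes tested, 0 were higher and 1 lower with that setting. SSA4 and YDJ1 lost their calls under 6 and 7 of 11 further alternatives, and the other 4 genes under 2. These 11 include the second platform alone, which is the same fit as leaving out replicate 1. All 6 genes lost their calls under it. Groups of 3 arrays are too small for a test of single outlying arrays.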

How the results depend on the processing

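Of 84 recomputed counts of members that passed, 76 were the same as the count reported. That count was 0 at 15 min and in every comparison between times, so most of these show only that 0 stayed 0. The second platform alone is the same fit as leaving out replicate 1, and both were counted. At 15 min 1 member passed in place of 0 (ERO1) with all arrays set to 1 median absolute deviation or with the replicate block (adjusted p = 0.011). The first of these settings had 34 genes higher and 15 lower of 2148, in place of 18 and 7. At 30 min the count of 1 became 0 on the second platform alone and with any 1 replicate left out, where fewer arrays entered. Over all genes 76 were higher and 68 lower in the fit reported. Without replicates 1, 2 and 3 these fell to 30 and 5, 16 and 4, and 29 and 4. With array weights the count of members became 2, while 244 of all 3320 genes were higher and 412 lower. From 15 to 60 min 2 passed in place of 0 with the replicate block (ERO1, adjusted p = 0.0235, and PDI1, 0.0452). The replicate block had 88 genes higher and 73 lower at 15 min in place of 18 and 7, and it changed no other count of members. Same-numbered arrays deviated from their group means with correlations of 0.022 to 0.526 over 1657 genes, against -0.607 to 0.296 between different numbers, and 8 of 9 arrays correlated best with an array of their own number. This is a hint of pairing from the data, not the design. Since no label says what a number shares and 2 of the 9 correlations were under 0.1 (0.039 and 0.022), the fit without the block is the one reported. Of 490 recomputed member values 25 turned sign, none of a value that passed, and the cause was not tested. Without 1 replicate KAR2 at 60 min ranged from -0.097 to 0.095 and its change from 15 to 30 min from -0.16 to 0.33, ERO1's change from 15 to 30 min from -0.21 to 0.27, EUG1 at 15 min from -0.26 to 0.41 and at 30 min from -0.32 to 0.018, and SCJ1 and JEM1 at 30 min from -0.051 to 0.17 and from -0.41 to 0.15. EUG1's changes ranged from -0.73 to 0.25 (15 to 30 min) and from -0.047 to 0.60 (15 to 60 min). HAC1 ranged from -0.52 to 0.18, from -0.32 to 0.078 and from -0.16 to 0.54 at 15, 30 and 60 min, and its change from 15 to 30 min from -0.10 to 0.34. Centred medians gave 0.032 for KAR2 at 60 min, scaling gave changes from 15 to 30 min of -0.085 (KAR2) and 0.10 (ERO1), and array weights -0.23 (HAC1). The second platform alone gave -0.0049 for that change of KAR2, 0.25 for that of EUG1, -0.26 for EUG1 at 15 min and 0.15 for JEM1 at 30 min. Calls over all genes at 60 min, 461 higher and 518 lower, fell when a replicate was left out. They were 292 and 264, 206 and 276, and 321 and 241 without replicates 1, 2 and 3. Of 30 list genes named at 60 min, 9 passed without any 1 replicate: CPR2, EMC3, OST1, YOS9, ERV25, HSP26, SSA4, SSA1 and HSP104. Among these 30, calls also ended for UBC6, SRP68, SEC63, SEC13, ROT1, ERV2, BET1, ALG5 and CUR1 with scaling, for UBC6, SEC63, ROT1, ERV2, BET1, ALG5 and CUR1 with only the time point fitted, for UBC6, SEC13, ROT1, BET1 and CUR1 with array weights, for WBP1, UBC6, ROT1 and CUR1 with a platform term, for UBC6, ALG5 and CUR1 with centred medians, for UBC6 and CUR1 with genes of 2 arrays admitted, and for CUR1 with a robust spread. Signal over background could not be examined, since the tables used hold ratios alone.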
